A study of Mus musculus with 4 samples.

Results

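The insulin-like growth factor (IGF) system was followed in MC38 cells, a mouse line of colon carcinoma origin, engineered with a stable TetOn construct for CXCL14, a secreted chemokine. The 10 genes comprise the ligands Igf1 and Igf2, the receptors Igf1r and Igf2r, and the binding protein genes Igfbp2, Igfbp3, Igfbp4, Igfbp5, Igfbp6 and Igfbp7. They were taken from the deposited expression table by gene symbol, and all 10 were among its 22186 genes. RNA sequencing was available for 4 libraries in 2 groups of the same engineered line. The DOX group (n = 2) received 1 µg/mL doxycycline, the antibiotic that switches a TetOn promoter on, and the control group (n = 2) received the solvent PBS, both for 72 h. The series text describes the samples of a group as biological replicates. No library of cells without the construct was analysed, so the antibiotic and the induced chemokine cannot be told apart.

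IGF1 and IGF2 are secreted growth factors that signal through IGF1R, a receptor tyrosine kinase closely related to the insulin receptor. IGF2R has no kinase; it carries mannose 6-phosphate-tagged enzymes to lysosomes and removes IGF2 from the cell surface. The binding proteins hold IGFs outside the cell, can block or prolong their action, and are cut by proteases that release the ligand. In colon tumours the system is best known for excess IGF2.

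The upstream sequences of Igfbp4 and Igfbp5 are shown because, of the 5 genes with levels high enough to test, these 2 differed most on the log2(TPM + 1) scale, and in opposite directions. Each run holds the 250 bases before the annotated start, 5′ to 3′ on the gene's strand, from RefSeq on build GRCm38.p6, which is older than the mm39 build of the expression tables. The Igfbp4 window is chr11:99040994-99041243 on the plus strand and the Igfbp5 window is chr1:72874866-72875115 on the minus strand. Capitals mark TATAAA or the variant TATTTAAA.
Igfbp4: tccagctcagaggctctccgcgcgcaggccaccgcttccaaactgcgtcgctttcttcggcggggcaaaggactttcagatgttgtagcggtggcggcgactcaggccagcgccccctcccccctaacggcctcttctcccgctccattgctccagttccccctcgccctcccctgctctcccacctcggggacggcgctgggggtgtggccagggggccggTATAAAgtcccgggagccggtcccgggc
Igfbp5: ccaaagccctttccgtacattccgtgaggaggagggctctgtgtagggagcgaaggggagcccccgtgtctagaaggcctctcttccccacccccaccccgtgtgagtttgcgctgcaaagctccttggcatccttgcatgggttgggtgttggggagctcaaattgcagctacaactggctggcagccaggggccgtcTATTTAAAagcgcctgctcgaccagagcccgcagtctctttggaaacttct

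The Igfbp4 window was 69.2% G or C and the Igfbp5 window 58.8%. Both strands of every window were searched for TGATGNAA (bound by C/EBP-ATF pairs), TGANTCA (AP-1) and CACGTG (E-box), and neither of these 2 windows held any of them. TATAAA and TATTTAAA, added after the windows were seen, occurred in 12.4% and 1.71% of 32851 windows of that length. The 3 other motifs occurred in 3.45%, 6.75% and 6.02% of the windows, in the order given. No motif searched overlapped another in the windows shown. All 10 genes matched the RefSeq table, with 14 windows between them. TGATGNAA was in 0 of the 14, TGANTCA in 2 and CACGTG in 2. TATAAA was in 2 of the 14, those of Igfbp4 and Igfbp6, and TATTTAAA in 1, that of Igfbp5. These matches describe the sequence and are not evidence of binding.

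Levels are given as TPM, the share of all transcripts scaled by transcript length, so genes can be compared with each other. The deposited tables hold no read counts, so the depth of the libraries is unknown and an exact 0 is described as listed at 0. Each library's values added up to between 97.24% and 97.59% of the fixed TPM total, and 14330 to 14678 genes were above 0 in a library. Cxcl14, which the construct was built to induce, stood at 385 and 391 TPM in DOX cultures and at 27.3 and 29.2 TPM in control cultures. Against the label of a colon cancer cell, the 9 intestinal epithelial markers summed to 0.0774 to 0.459 TPM in DOX and 0.453 to 0.539 TPM in control libraries, with Cdh1, Cdx2 and Krt19 listed at 0 in all 4. The DOX and control libraries were compared gene by gene on log2(TPM + 1) with limma, for the 11359 genes whose 4-library mean reached 1 TPM. Among those genes 64.4% were called at a Benjamini-Hochberg adjusted p under 0.05, 29.0% as higher and 35.4% as lower after doxycycline, and the 2 groups did not overlap for 82.7%. A call, or groups that do not overlap, was therefore the usual outcome for a gene in these data. With 2 libraries in each group the smallest two-sided p of an exact permutation test is 0.33, so each p-value depends on limma's pooling of the spread over genes.

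Both ligand genes were listed at 0.413 TPM or less in every library. Igf1 stood at 0.0909 and 0.0756 TPM in DOX cultures and at 0.344 and 0.413 TPM in control cultures. Igf2 was listed at 0.0557 and 0.0294 TPM in DOX cultures and at 0.0321 and 0 TPM in control cultures. The DOX libraries were both lower for Igf1, whereas the groups overlapped for Igf2. Neither ligand reached the mean of 1 TPM needed for the test. When the filter on low values was dropped, Igf1 passed as lower (log2 difference -0.35, limma adjusted p = 0.0072) and Igf2 did not pass (limma adjusted p = 0.55). Igf2 shares exons with the predicted gene Gm49394 and with the antisense Igf2os in GENCODE M21, so its few reads could be divided among them. The cultures were grown in medium with fetal bovine serum, whose proteins RNA sequencing does not measure.

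Both receptor genes were measured well above the ligands and were moderately lower after doxycycline. Igf1r, the signalling receptor, stood at 8.05 and 7.76 TPM in DOX cultures and at 11.3 and 10.4 TPM in control cultures. Igf2r, the clearance receptor, stood at 63.4 and 60.8 TPM in DOX cultures and at 79.2 and 74.0 TPM in control cultures. For both genes each DOX library lay below each control library. Igf1r averaged 7.90 ± 0.204 TPM in DOX and 10.8 ± 0.631 TPM in control cultures (SD, n = 2 each), a log2 difference of -0.41 (SE 0.10, limma adjusted p = 0.0064). That call was lost under quantile normalization (log2 difference -0.16, limma adjusted p = 0.19). Igf2r averaged 62.1 ± 1.78 TPM in DOX and 76.6 ± 3.70 TPM in control cultures (SD, n = 2 each), a log2 difference of -0.30 (SE 0.07, limma adjusted p = 0.0034), and was called in all 14 alternative settings. By size of difference these 2 genes ranked 4829 and 6187 of the 11359 genes tested, in the middle of the table.

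Igf2r mRNA exceeded Igf1r mRNA in every library. The ratio of the 2 TPM values was 7.87 and 7.84 in DOX cultures and 7.04 and 7.14 in control cultures. Insr, the insulin receptor, which forms hybrid receptors with IGF1R, stood at 23.6 and 23.7 TPM in DOX and at 25.4 and 26.1 TPM in control cultures (log2 difference -0.12, limma adjusted p = 0.20). Igf1r was thus the less abundant of the pair, with an Igf1r to Insr ratio of 0.340 and 0.327 in DOX cultures and 0.443 and 0.397 in control cultures. M6pr, the other mannose 6-phosphate receptor, was called higher after doxycycline (log2 difference 0.27, limma adjusted p = 0.0033). The Igf2r to M6pr ratio was 0.404 and 0.377 in DOX cultures and 0.616 and 0.549 in control cultures.

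**Figure D1:**
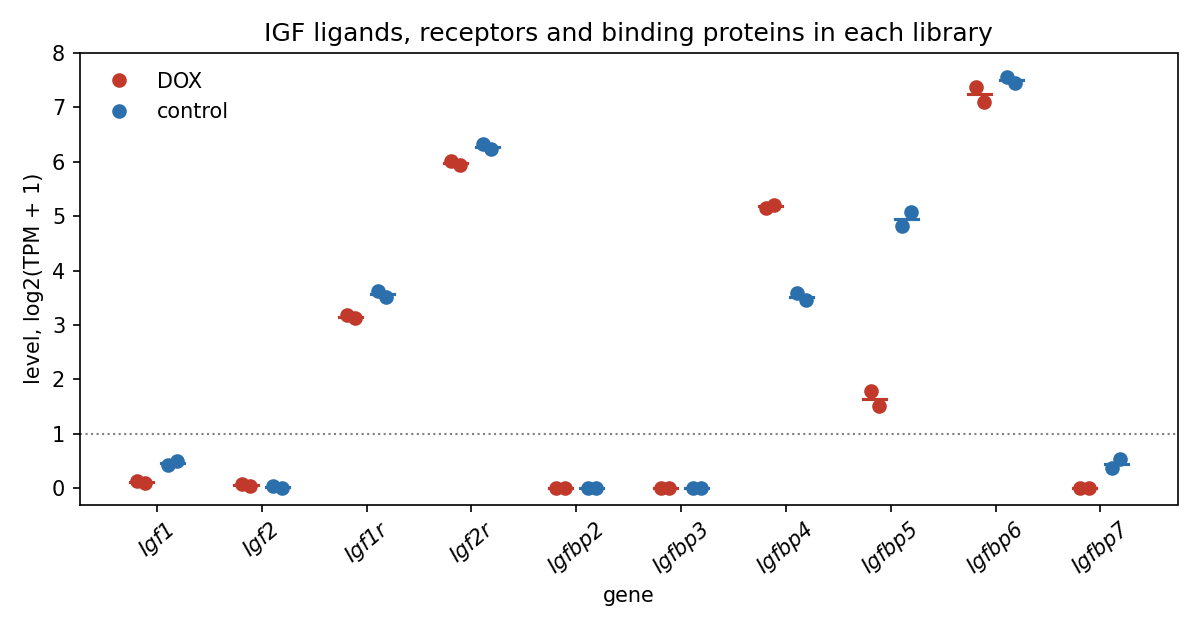
Level of each of the 10 genes as log2(TPM + 1), with DOX libraries in red to the left of control libraries in blue, 2 points per group and a bar at their mean; the dotted line is 1 TPM. Igfbp4 is higher and Igfbp5 lower in DOX libraries, Igf1r, Igf2r and Igfbp6 differ less, and the other 5 genes lie at or below 0.443 TPM.

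The binding protein genes changed in composition. Igfbp5 fell and Igfbp4 rose after doxycycline, while Igfbp6, the most abundant of the 10 genes in every library, differed little. Of the 6 binding protein genes, 3 had levels high enough to test.

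Igfbp5 encodes a binding protein that also attaches to extracellular matrix. It stood at 2.45 and 1.85 TPM in DOX cultures and at 27.1 and 32.6 TPM in control cultures. Both DOX libraries were far below both control libraries, and all 4 were above 1 TPM. The means were 2.15 ± 0.425 TPM in DOX and 29.8 ± 3.87 TPM in control cultures (SD, n = 2 each), which is 13.9-fold lower after doxycycline. The log2 difference was -3.29 (SE 0.13, limma adjusted p = 1.1e-07), between -3.74 and -2.64 in 14 alternative settings, all of which kept the call. It was the 35th largest fall among 11359 genes tested.

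Igfbp4 encodes a binding protein that mostly inhibits IGF action until the protease PAPP-A cuts it. It stood at 34.4 and 36.1 TPM in DOX cultures and at 11.0 and 9.99 TPM in control cultures. Here both DOX libraries were above both control libraries. The means were 35.2 ± 1.22 TPM in DOX and 10.5 ± 0.729 TPM in control cultures (SD, n = 2 each), 3.36-fold higher after doxycycline. The log2 difference was 1.66 (SE 0.09, limma adjusted p = 4.6e-07), between 1.51 and 1.81 in the 14 alternative settings, again with the call kept in all. Igfbp4 was the 93rd largest rise.

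Igfbp6 encodes a binding protein that prefers IGF2 over IGF1. It stood at 165 and 137 TPM in DOX cultures and at 187 and 173 TPM in control cultures. The groups did not overlap, but the lower control library lay closer to the higher DOX library than the DOX libraries lay to each other. The means were 151 ± 20.3 TPM in DOX and 180.4 ± 9.77 TPM in control cultures (SD, n = 2 each), with a log2 difference of -0.26 (SE 0.09, limma adjusted p = 0.029). The call held in 8 of 14 alternative settings. It was lost without DOX replicate 2 (limma adjusted p = 0.27), without control replicate 1 (limma adjusted p = 0.17) and without control replicate 2 (limma adjusted p = 0.061).

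The other binding protein genes were at or near 0. Igfbp2 and Igfbp3 were listed at 0 in all 4 libraries. Igfbp7, a more distant relative with low affinity for IGFs, was listed at 0 in both DOX libraries and at 0.287 and 0.443 TPM in the control libraries. It was not tested at the filter of 1 TPM, and passed as lower without it (limma adjusted p = 0.0080). An exon of Igfbp7 overlaps one of Polr2b on the opposite strand in GENCODE M21, and whether reads were assigned by strand is not stated in the labels. In that annotation Igfbp2 and Igfbp5 are neighbouring protein-coding genes that converge, as are Igfbp1 and Igfbp3. Of the first pair Igfbp5 alone was detected, and of the second neither, Igfbp1 being listed at 0 in all 4 libraries too.

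Summed over the 6 genes, binding protein mRNA came to 202 and 174 TPM in DOX cultures and to 226 and 216 TPM in control cultures. Igfbp6 made up 81.8% and 78.2% of that sum in DOX cultures and 83.0% and 80.1% in control cultures, so the groups overlapped. The remainder was divided differently. Igfbp4 made up 17.0% and 20.7% in DOX cultures and 4.88% and 4.61% in control cultures. Igfbp5 made up 1.21% and 1.06% in DOX cultures and 12.0% and 15.0% in control cultures. The Igfbp4 to Igfbp5 ratio averaged 16.8 ± 3.89 in DOX and 0.356 ± 0.0707 in control cultures (SD, n = 2 each). These shares and ratios are taken within a library, and rescaling a whole library leaves them as they are.

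**Figure D2:**
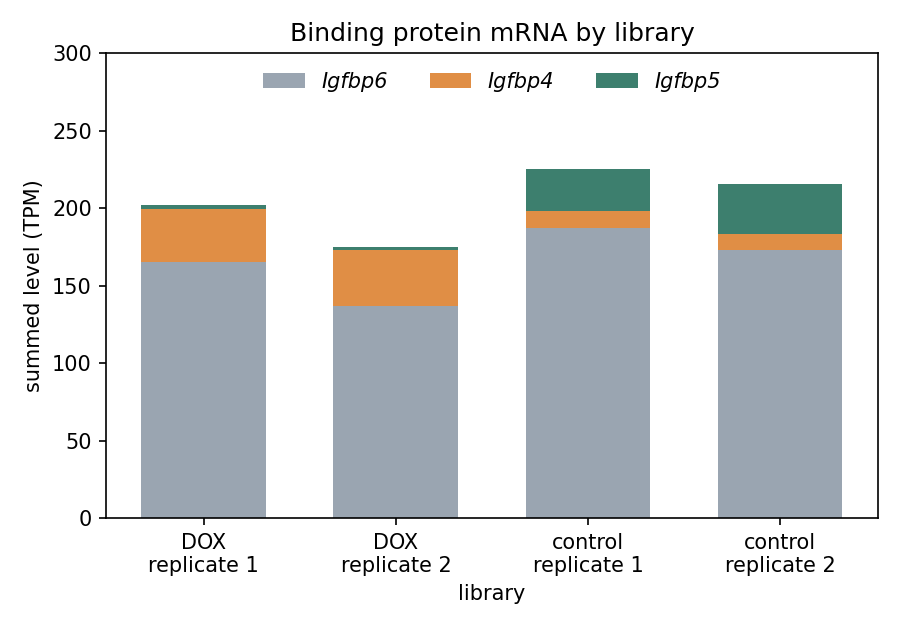
Stacked bars give the level in TPM of Igfbp6, Igfbp4 and Igfbp5 in each of the 4 libraries, DOX at left and control at right. Igfbp6 fills most of each bar, and the part above it is mainly Igfbp4 in DOX libraries and mainly Igfbp5 in control libraries.

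The order of the 5 measurable genes differed between groups. In DOX cultures the order was Igfbp6, Igf2r, Igfbp4, Igf1r and Igfbp5, and no neighbours in it overlapped. In control cultures it was Igfbp6, Igf2r, Igfbp5, Igf1r and Igfbp4, where the ranges of Igf1r and Igfbp4 over the 2 libraries overlapped, although Igf1r was slightly the higher within each library. Igfbp6 stood within the top 10.2% of the genes tested by mean level, while Igf1r ranked 9115 of 11359.

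For each of the 3 called genes with the largest differences, the genes with the most similar profile over the 4 libraries were sought by the root mean square difference in centred log2(TPM + 1). For Igfbp5 these were Rasl11a, a small GTPase of the Ras family (0.060), Ccl8, a chemokine (0.060), and Nfkbiz, an atypical IkappaB protein (0.067). Nfkbiz stood at 24.6 and 21.1 TPM in DOX cultures and at 236 and 262 TPM in control cultures. For Igfbp4 they were Slc7a1, a transporter of cationic amino acids (0.018), Ascc2, a subunit of the ASC-1 complex (0.028), and Lars, the cytosolic leucyl-tRNA synthetase (0.034). Slc7a1 stood at 288 and 295 TPM in DOX cultures and at 97.5 and 86.6 TPM in control cultures. For Igf1r they were Rabep2, Dnmt3a and Csnk1g2, at 0.007, 0.009 and 0.011. With 4 libraries in 2 groups, such likeness mostly states that the genes differed by a like amount.

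Igfbp5 is also expressed by fibroblasts, and some of the fibroblast markers were lower with it. The 8 markers summed to 359 to 424 TPM in DOX libraries and to 946 to 978 TPM in control libraries. Of the 4 tested, 3 were lower and 0 higher, against 35.4% and 29.0% of all genes tested. The sum came almost wholly from Col3a1, Pdgfra and Pdgfrb, which were the 3 that were lower. Col1a1, the fourth gene tested, stood at 3.39 and 2.02 TPM in DOX and at 2.43 and 2.14 TPM in control libraries and was not called (limma adjusted p = 0.52). Col1a2 averaged 0.177 ± 0.103 TPM in DOX and 0.0598 ± 0.0254 TPM in control libraries (SD, n = 2 each), higher in both DOX libraries but too low to test. Thy1 was listed at 0 in all libraries, and Lum and Fap were below 1 TPM in each. The part of these genes in the Igfbp5 difference was not tested, and in bulk RNA fewer cells of a type and less RNA per cell cannot be told apart. Endothelial markers summed to at most 0.173 TPM in DOX and 0.818 TPM in control libraries. Macrophage markers summed to 4.83 to 5.29 TPM in DOX and 7.33 to 8.31 TPM in control libraries, mostly Cd68, with Laptm5, C1qa and C1qc listed at 0. Skeletal muscle markers summed to 2.48 to 2.76 TPM in DOX and 2.94 to 3.33 TPM in control libraries, with Myod1 listed at 0.

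Around the 10 genes, 96 further genes were listed in groups, 11 of them as imprinted genes and not as parts of the IGF system. Of the 96, 93 were in the table and 68 were tested. Of these 68, 14 were higher and 32 lower after doxycycline, or 20.6% and 47.1%, against 29.0% and 35.4% of all genes tested. Their median log2 difference was -0.16, against -0.04 over all genes tested. The combined share called, 67.6%, was close to the 64.4% of all genes.

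Among proteases that cut binding proteins and their inhibitors, 6 of 12 were tested, with 3 higher and 3 lower. Pappa, which encodes the protease PAPP-A, was between 0.0266 and 0.0451 TPM in every library. Stc2, which encodes the PAPP-A inhibitor stanniocalcin-2, rose to 83.7 and 90.3 TPM in DOX cultures, against 30.1 and 28.7 TPM in control cultures (log2 difference 1.53, limma adjusted p = 2.3e-07). Stc2 and Igfbp4 were thus both higher in each DOX library. Adam9 and Htra1, proteases of this list, were also called higher (log2 difference 0.56 and 0.47, limma adjusted p = 3.2e-05 and 9.9e-05). Plat, tissue plasminogen activator, fell to 3.54 and 2.78 TPM in DOX cultures, against 16.0 and 13.9 TPM in control cultures (log2 difference -1.94), and Adamts1 fell as well (log2 difference -1.10). Ctsd, another protease of this list, fell to 764 and 682 TPM in DOX cultures, against 1058 and 1003 TPM in control cultures (log2 difference -0.51).

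Of the 5 convertases that mature IGF precursors and the receptor, 3 were tested. Among them 1 was higher and 1 lower, or 33.3% each, against 29.0% and 35.4% of all genes tested. Furin, the convertase that cleaves the IGF1R precursor, stood at 90.4 and 87.6 TPM in DOX cultures and at 192 and 185 TPM in control cultures (log2 difference -1.07, limma adjusted p = 6.1e-07). Pcsk4 was called higher (log2 difference 0.56), a call lost without DOX replicate 2 (limma adjusted p = 0.062). Of the 3 Igf2 mRNA-binding proteins, Igf2bp2 and Igf2bp3 were tested and both fell (log2 difference -0.62 and -0.84, limma adjusted p = 2.7e-05 and 3.0e-05). Igf2bp2 stood at 50.7 and 49.7 TPM in DOX cultures and at 78.2 and 76.7 TPM in control cultures, in cells whose Igf2 was listed at or near 0.

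Of 9 cell surface partners of binding proteins, 5 were tested, with 1 higher and 3 lower. These were 20.0% and 60.0% of those tested, against 29.0% and 35.4% of all genes tested. Lrp1, an endocytic receptor that binds several IGFBPs, stood at 78.0 and 66.9 TPM in DOX cultures and at 164 and 150.4 TPM in control cultures (log2 difference -1.11, limma adjusted p = 3.8e-06). The integrin chains Itgav and Itga5 fell (log2 difference -0.75 and -0.53), and Tmem219, a receptor for IGFBP3, rose (log2 difference 0.65) although Igfbp3 was listed at 0. In the mannose 6-phosphate pathway all 8 genes were tested, with 2 higher, 1 lower and 5 not called. The share called was 37.5%, against 64.4% of all genes tested. Besides M6pr, Gnptab, the enzyme subunit that starts the mannose 6-phosphate tag, was lower (log2 difference -0.60, limma adjusted p = 2.0e-05). Gga1, a sorting adaptor, was higher (log2 difference 0.23), but not without DOX replicate 1 (limma adjusted p = 0.071).

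**Figure D3:**
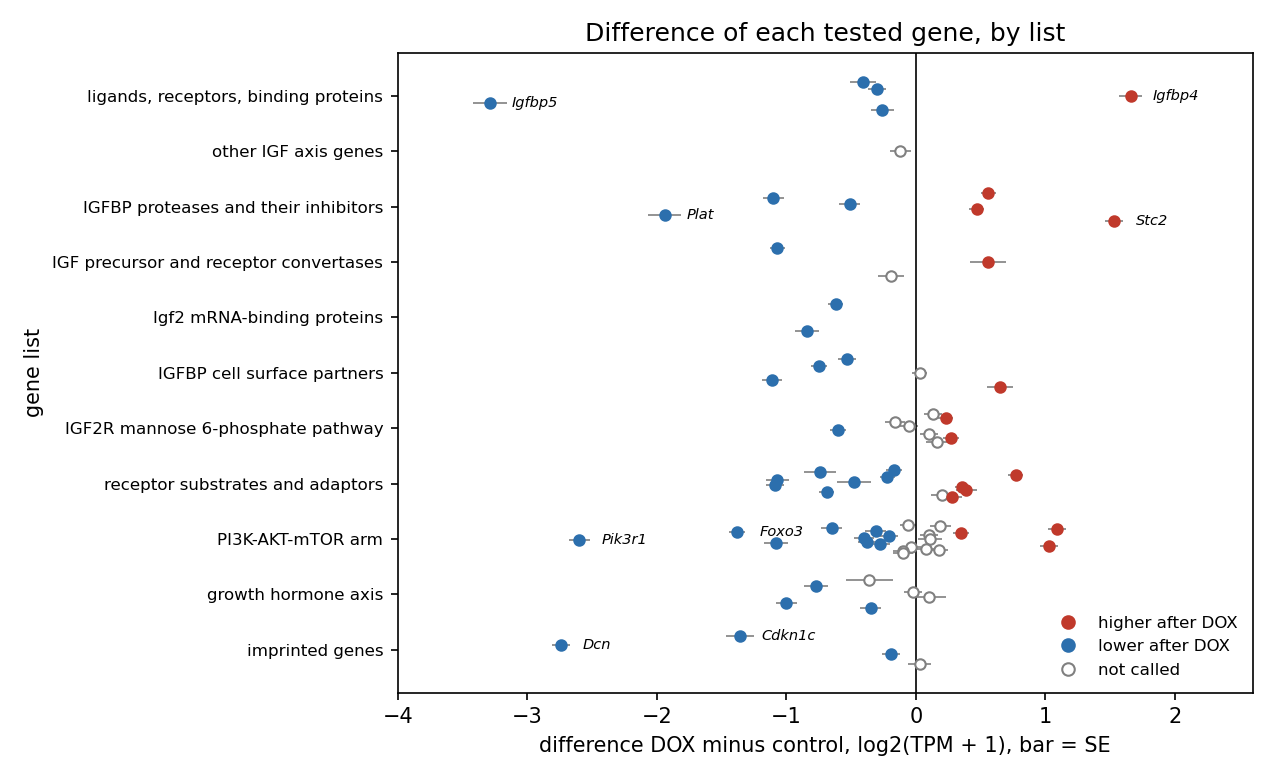
Each point is the log2(TPM + 1) difference, DOX minus control, of a tested gene with its SE as a bar, grouped by list from top to bottom, with red for higher, blue for lower and open for not called. Igfbp5 at -3.29 and Igfbp4 at 1.66 stand at the ends of the plot, with Dcn at -2.74, Pik3r1 at -2.60 and Stc2 at 1.53 next to them.

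Downstream of IGF1R, 12 of 14 receptor substrates and adaptors were tested, with 4 higher and 7 lower. These were 33.3% and 58.3% of those tested, against 29.0% and 35.4% of all genes tested. Irs1, the docking protein that links the receptor to PI3K, stood at 13.6 and 11.9 TPM in DOX cultures and at 28.0 and 27.7 TPM in control cultures (log2 difference -1.07, limma adjusted p = 8.5e-06). Gab1, another docking protein, and Ptpn1, a phosphatase that acts on the insulin receptor, fell (log2 difference -0.74 and -1.09). Grb10, an adaptor that restrains insulin and IGF1 receptor signalling, stood at 222 TPM in both DOX cultures and at 133 and 127 TPM in control cultures (log2 difference 0.77, limma adjusted p = 4.0e-06). Of these 2 negative regulators of receptor signalling, Grb10 was therefore higher and Ptpn1 lower.

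In the PI3K, AKT and mTOR arm all 21 genes were tested, with 3 higher, 9 lower and 9 not called. The share called was 57.1%, against 64.4% of all genes tested. Pik3r1, the main regulatory subunit of PI3K, stood at 33.0 and 28.9 TPM in DOX cultures and at 183 and 204 TPM in control cultures (log2 difference -2.60, limma adjusted p = 3.2e-08). Its ratio to Pik3ca, a catalytic subunit, averaged 0.893 ± 0.0876 in DOX and 4.18 ± 0.00218 in control cultures (SD, n = 2 each). Pik3r3, another regulatory subunit, and Foxo3, a transcription factor that AKT keeps out of the nucleus, fell (log2 difference -1.08 and -1.38). Eif4ebp1, a translation repressor that mTOR phosphorylates, rose to 734 and 749 TPM in DOX cultures, against 367 and 328 TPM in control cultures (log2 difference 1.09). Akt1 stood at 306 and 299.9 TPM in DOX and at 329 and 303 TPM in control cultures, and was not called (limma adjusted p = 0.43).

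The growth hormone axis, which drives Igf1 in liver, had all 6 of its genes tested, with 0 higher and 3 lower. Stat5a, a transcription factor activated by the receptor, fell to 15.7 and 15.0 TPM in DOX cultures, against 32.8 and 30.8 TPM in control cultures (limma adjusted p = 6.2e-06). Ghr, the growth hormone receptor, and Stat5b also fell (log2 difference -0.77 and -0.35). Of 11 imprinted genes listed because Igf2 and Igf2r are imprinted, 8 were in the table and 4 were tested. Of those 4, 0 were higher and 3 lower. Dcn, Cdkn1c, a cell cycle inhibitor, and Gnas were those 3 (log2 difference -2.74, -1.36 and -0.19). Called genes made up 75.0% of those tested, against 64.4% of all genes tested. Whether the listed genes are imprinted in these cells was not tested. Dcn was put in this list with its earlier result in these data known. Grb10, also imprinted, was counted among the adaptors instead and was higher (log2 difference 0.77), so the count of 0 higher holds for this list only. The Gnas call held in 5 of 14 alternative settings, with limma adjusted p between 0.028 and 0.29, and was lost without control replicate 1 (0.091), without DOX replicate 1 (0.084) and without DOX replicate 2 (0.29).

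**Figure D4:**
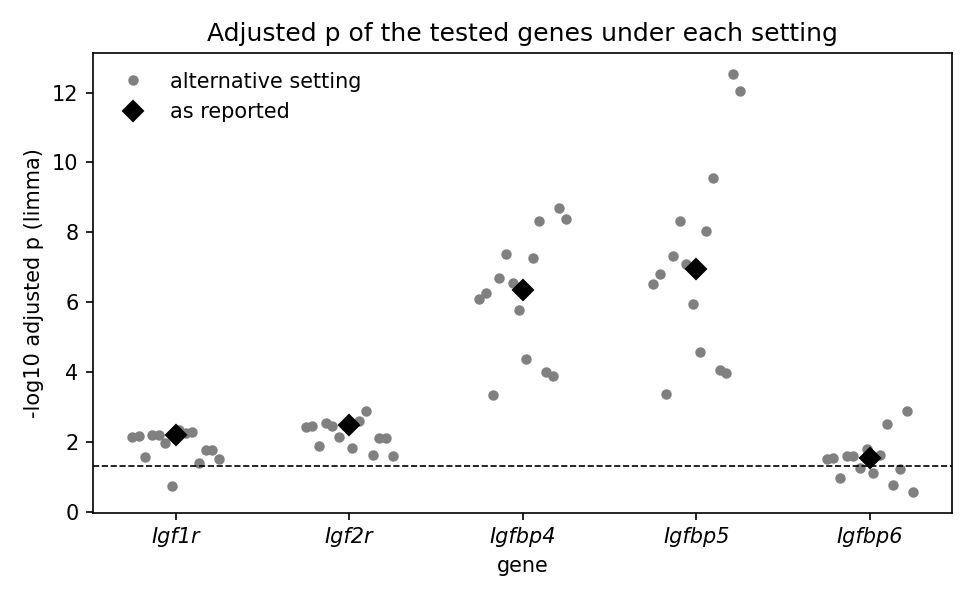
The vertical axis is -log10 of the limma adjusted p, with a diamond for the value as reported and grey points for the 14 alternative settings; the dashed line is the 0.05 threshold. Igfbp4, Igfbp5 and Igf2r stay above the line throughout, Igf1r falls below it in 1 setting and Igfbp6 in 6.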

How the data were processed

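RNA was measured in 4 libraries of doxycycline-inducible MC38 cells, grouped by sample title. The authors deposited TPM and FPKM values per gene symbol, per the file headers. The median ratio of deposited TPM to deposited FPKM within a library was 3.080 to 3.141. Genome build mm39 comes from the submitters' processing notes; the sources used here name no aligner, quantifier or annotation. Depth is unknown, so no counting interval is given.

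Genes whose mean reached 1 TPM were fitted on log2(TPM + 1) with limma 3.58.1 in R 4.3.3 (eBayes with trend, no covariate), and p-values were adjusted over all 11359. Fold changes on this scale understate those of low genes. The fit was tested on simulated data. Tables used Python 3.11.15 and pandas 2.3.3. Transcripts of other genes nearly identical to the 10 were searched for by blastn 2.17.0 in GENCODE M21 transcripts at 97% identity over at least 100 bases; among the 10 genes, Igf2 alone matched, to overlapping loci.

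The genes and lists were chosen with earlier results of these data known, so counts within them are descriptions. Named genes are Cxcl14, the 10 genes, up to 4 called genes per list with the largest differences, and 3 nearest profiles for each of 3 genes. Others (Insr, Htra1, Ctsd, Pappa, Akt1, Pik3ca, Igfbp1 and cell type markers) were named after their values were seen. Ctsd is left out of the counts of named genes given below. Of the lists, H19, Meg3 and Airn were not analysed here. Alternatives tried were a pseudocount of 0.1 or 0.5; a filter at a mean of 5 TPM, or none; the FPKM table; quantile normalization or scaling by median of ratios; a variance model with no trend or with robust estimation; a block for replicate number; and leaving out each library in turn.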

Additional observations from a re-analysis of the deposited data

How the results depend on the processing

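As reported, 5 of the 10 IGF genes were tested and all 5 were called, against 64.4% of all genes tested. Among the 14 alternative settings, each that kept all 4 libraries called 1 of the 10 higher. Those settings called 3 to 5 lower, against 4 as reported. The count of 5 came with no filter, where Igf1 and Igfbp7, both under 1 TPM, passed as lower. Igfbp4, Igfbp5 and Igf2r kept direction and call in all 14, and Igf1r in 13. Beyond the left-out replicates, Igfbp6 missed the threshold with no filter (limma adjusted p = 0.11), median-of-ratios scaling (0.055) and no variance trend (0.081). The genes called over the whole table numbered 2776 to 3870 higher and 3356 to 4114 lower, against 3295 and 4017 as reported. Leaving out each replicate gave 2776 to 3077 higher and 3473 to 3656 lower; a library left alone in its group then borrows its spread from the other group. Calls among the 93 listed genes around the 10 that were in the table were counted wherever a setting tested them. With all 4 libraries kept, 14 to 20 were called higher and 27 to 34 lower, against 14 and 32 as reported. The number of these genes tested was 68 as reported and varied with the filter. Of 45 called genes named outside the 10, 5 lost their call in at least 1 setting (Pcsk4, Gga1, Gnas, Dnmt3a and Cd68), and of the 50 called genes named, those of the 10 included, 0 changed sign. Of 3 genes named that were not called, 2 changed sign: Insr under quantile normalization (log2 difference 0.01) and Col1a1 without DOX replicate 1 (-0.12, against up to 0.42 without each other replicate). The replicate block gave 3387 higher and 4114 lower calls and changed no call among the 10. The deviations of same-numbered libraries correlated at -0.00526 over the genes tested. A single correlation from 2 libraries per group cannot show whether same-numbered libraries were paired, and the labels do not say. The unknown depth limits the genes under 1 TPM most, where Igf1, Igf2 and Igfbp7 lie.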
